A study of Mus musculus with 4 samples.

Results

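The genes described here encode translation initiation factors (symbols beginning Eif and a digit), elongation factors (Eef and a digit) and aminoacyl-tRNA synthetases (1 letter followed by ars, with a final 2 for mitochondrial enzymes). With earlier results of these data known, members were chosen by symbol, from array spots annotated with a single gene. They numbered 58 genes on 67 spots, of 10699 named genes and 16281 spots in all. Of the 58, 33 were initiation factors by symbol or their kinases and inhibitors, 10 were elongation factors or enzymes that modify them, and 15 were synthetases. Genes of the same families outside this naming, such as Eprs and Farsb, were not members.

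Protein synthesis starts when the initiation factor eIF2 brings the initiator tRNA to the small ribosomal subunit and the cap complex eIF4F recruits the mRNA. Phosphorylation of eIF2 by stress kinases, and binding of the cap protein eIF4E by 4E-BP inhibitors, are the main brakes on that step. Elongation factors then deliver the aminoacyl-tRNAs that synthetases have charged. In the hippocampus, new protein synthesis is known to be required for long-lasting contextual fear memory, and these brakes are known to be adjusted in neurons by synaptic activity.

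Each array set hippocampal CA1 RNA of young male C57BL/6J mice given MK-801 and then contextual fear conditioning (MK C+S) against that of young male C57BL/6J mice given MK-801, for which the labels name no conditioning (MK). MK-801 blocks NMDA-type glutamate receptors, and every animal of both groups received it, at 300 micrograms per g body weight as labelled, a value far above usual mouse doses that may be an error of the label. In MK C+S it was given 1 h before 3 rounds of 2 min in an unfamiliar context, each ended by a 1 s foot shock of 0.5 mA. Extraction followed at 1, 2, 4 or 6 h from the last shock, with 1 array per time and no replicate. How many animals gave each RNA is not stated in the sources used here.

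MK C+S was labelled with Cyanine-5 (red) and MK with Cyanine-3 (green) on all 4 arrays, so an effect of the dye and one of conditioning cannot be told apart. The deposited values are log ratios of unstated base and direction. Base 10 was assumed, which the range of the values does not settle, and every fold given below rests on it. Read as base 2, the members past 2-fold would number 0, 0, 0 and 1 at 1, 2, 4 and 6 h. Positive is taken to mean higher in MK C+S, which is likely but rests only on the custom of dividing red by green. Ratios hold no level, so the CA1 label could not be checked against the level of its markers, and fewer cells of a type cannot be told apart from less RNA per cell.

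The members' log ratios were mostly small. Of 224 values measured over the 4 arrays, 12 lay at least 2-fold (0.301 log10 units) from the array median, in 11 of the 58 genes. That is 19.0% of the members, against 32.5% of the 10623 genes with any value. By array, the members at least 2-fold above the median numbered 0 of 54 at 1 h (5.12% of all genes), 1 of 57 at 2 h (2.44%), 2 of 57 at 4 h (2.49%) and 1 of 56 at 6 h (10.2%). Those at least 2-fold below numbered 2 of 54 at 1 h (3.35% of all genes), 0 of 57 at 2 h (4.14%), 1 of 57 at 4 h (4.58%) and 5 of 56 at 6 h (11.7%). The members also spread less around their median than all genes did, with a median absolute deviation of 0.071, 0.093, 0.073 and 0.084 at 1, 2, 4 and 6 h, against 0.097, 0.096, 0.095 and 0.135 over all genes.

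**Figure D1:**
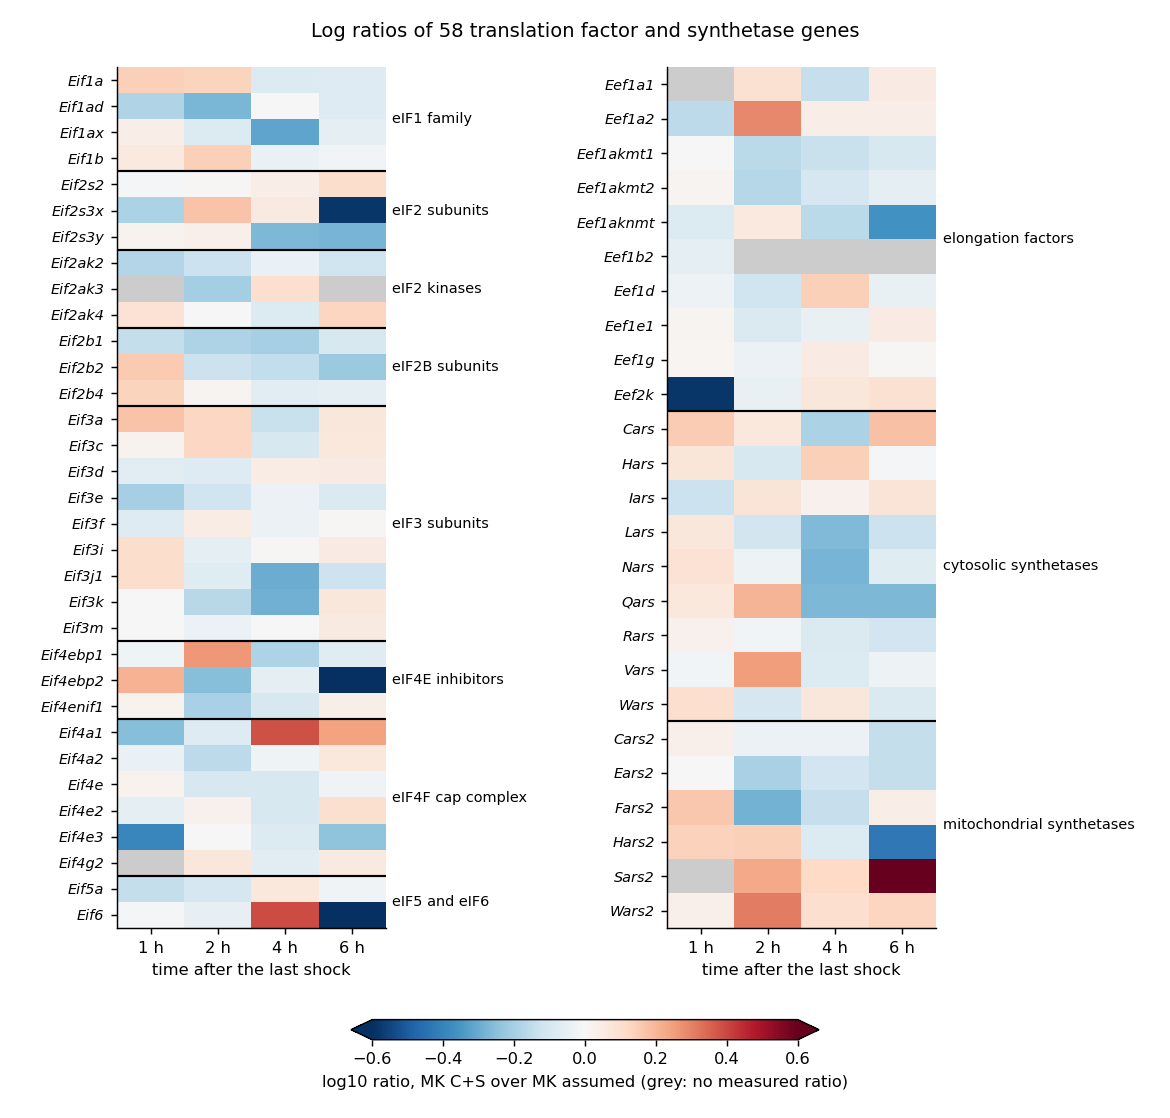
Log10 ratio (MK C+S over MK assumed) of each of the 58 member genes at 1, 2, 4 and 6 h, 1 array per time, grouped by class, with the colour scale ending at 0.6 in both directions and grey for no measured ratio. Most cells are pale, and the 4 h column holds 39 negative values of 57.

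The sign of the members differed between arrays. Positive log ratios were found for 31 of 54 members at 1 h, 24 of 57 at 2 h, 18 of 57 at 4 h and 24 of 56 at 6 h. The share over all genes was close to 50% each time (50.4%, 49.7%, 49.8% and 48.6%). The member medians were 0.015, -0.037, -0.065 and -0.026, against 0.0013, -0.00074, -0.00096 and -0.0062 for all genes. The 4 h array therefore had the largest excess of negative members, 39 of 57. After subtraction of a running median of 51 neighbouring spots, the 4 h median was -0.030 with 20 of 57 positive, and the 6 h median turned to 0.015 with 31 of 56 positive. The same step took the 1 h median from 0.015 to 0, and positive members were no longer the majority there. The 2 h median stayed negative, at -0.039. On the 4 h array the CA3 marker list was negative in 6 of 6 genes (median -0.39) and the endothelial and mural list in 10 of 11 (median -0.12). Their part in the member values was not tested.

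**Figure D2:**
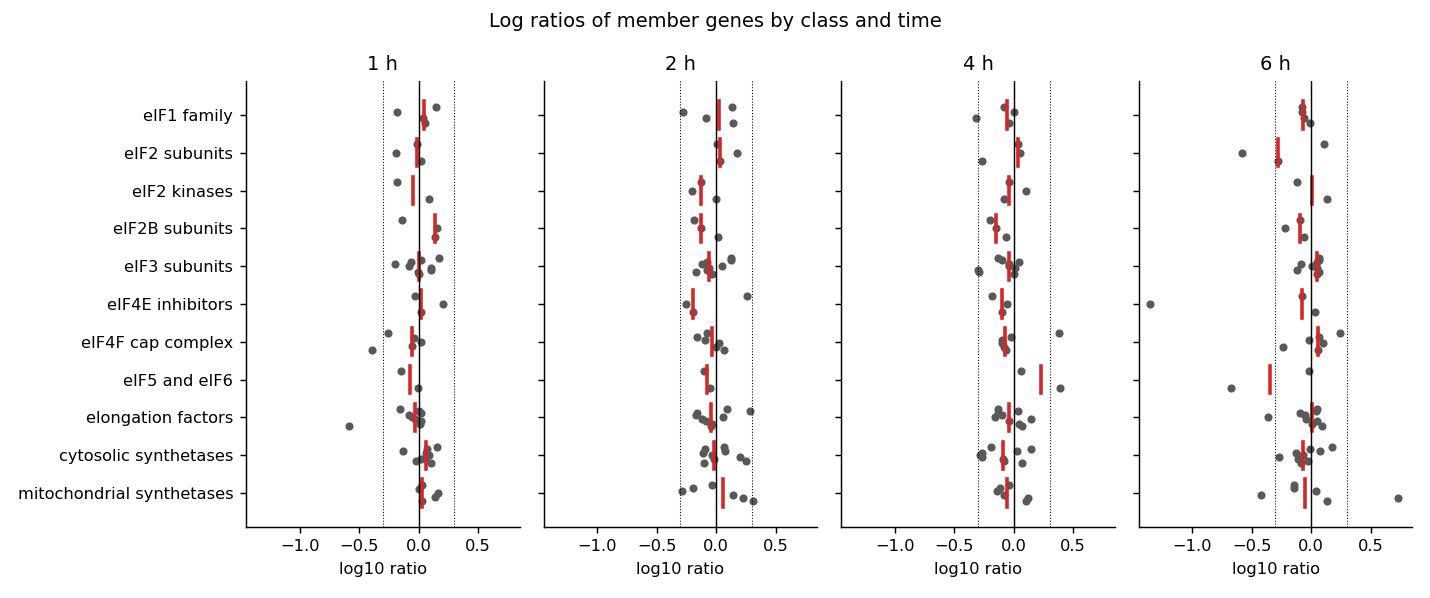
Log10 ratio of each member gene (grey points) by class in a panel for each time, with the class median as a red bar and dotted lines at 2-fold. The cytosolic synthetase points lie mostly right of 0 at 1 h, 7 of 9, and mostly left of it at 4 h, 6 of 9, and at 6 h, 7 of 9.

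No member passed the tests over time. The mean over the 4 arrays was tested with limma, in which differences between times form the error, on 8552 genes with a value on each array, 53 of them members. At an adjusted p under 0.05, 0 of 53 members were called (0% of all genes), and the lowest adjusted p of a member was 0.427. Without adjustment, 1 of 53 members had a p under 0.05, against 11.4% of all genes. For the slope on hours, 0 members were called (0% of all genes), the lowest adjusted p of a member was 0.154, and 6 members had an unadjusted p under 0.05, against 14.6% of all genes. The 6 were Hars2, Eif4ebp2, Qars and Eif2s3y with negative slopes and Eif4a1 and Eef2k with positive ones. Without the 4 h array, limma called 418 of 8627 genes for the slope, among them 2 of 53 members, Eif4ebp2 and Eif6, a share of members near that of all genes. The Eif4ebp2 value at 6 h rests on 1 spot, and the Eif6 value averages 2 spots that disagreed, at -1.49 and 0.14.

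Only Wars2 was positive on all 4 arrays, and Eif1ad, Eif2ak2, Eif2b1 and Eif3e were negative on all 4. With the running median removed, Eif3e was no longer negative throughout, at 0 at 4 h and 0.045 at 6 h. Over all genes, 10.1% of those with 4 values were positive throughout and 11.8% negative throughout. Values below are log10 ratios at 1, 2, 4 and 6 h in that order unless stated.

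The ternary complex and its control came first in the pathway. Of eIF2 itself, 3 genes were measured. Eif2s2, which encodes the beta subunit, gave -0.012, 0.0051, 0.039 and 0.11. Eif2s3x and Eif2s3y are X- and Y-linked copies of the gamma subunit gene. Eif2s3x gave -0.19, 0.17, 0.055 and -0.59, so only its 6 h value lay past 2-fold, at 3.85-fold below the median. Eif2s3y, present in these male animals, averaged 0.022, 0.029, -0.27 and -0.28 over its 2 spots. Both Eif2s3y spots were negative at 4 h (-0.29 and -0.25) and at 6 h (-0.29 and -0.27), while they had opposite signs at 1 and 2 h. The Eif2s3y slope was -0.072 ± 0.029 log10 units per h (SE, n = 4 arrays), with an unadjusted limma p of 0.0414 and an adjusted p of 0.313. For every slope given here, the SE is the moderated SE of limma, whose variance is shrunk towards that of all genes tested.

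The eIF2 kinases stayed under 2-fold. Eif2ak2 (PKR, which senses double-stranded RNA) gave -0.18, -0.13, -0.039 and -0.12, with a mean of -0.12 ± 0.057 (SD, n = 4 arrays). The spots measured at each time did not share a sign, lying at -0.38 and 0.023 at 1 h for example. Eif2ak4 (GCN2, which senses uncharged tRNA) gave 0.088, 0.0013, -0.082 and 0.13, and its 2 spots were far apart at 6 h, at -0.27 and 0.52. Eif2ak3 (PERK, the kinase of endoplasmic reticulum stress) was measured only at 2 h (-0.21) and 4 h (0.10).

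The exchange factor eIF2B, which recharges eIF2 with GTP, had 3 measured subunits, all negative at 4 and 6 h. Eif2b1 (alpha) gave -0.14, -0.19, -0.20 and -0.098. Its mean of -0.16 ± 0.046 (SD, n = 4 arrays) was the only member mean with an unadjusted limma p under 0.05, at 0.0175, and its adjusted p was 0.427. Eif2b2 (beta) gave 0.16, -0.13, -0.15 and -0.22, and Eif2b4 (delta) 0.14, 0.019, -0.061 and -0.060. At 1 h these 2 subunits were positive and Eif2b1 negative.

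The eIF1 family acts in scanning and start codon choice. Eif1a and Eif1ax encode forms of eIF1A, and Eif1b a form of eIF1. All 4 measured genes were negative at 4 h and at 6 h, with class medians of -0.059 and -0.069. At 4 h Eif1ad lay almost at the array median, and without centring 1 of the 4 genes was positive there. Eif1a gave 0.14, 0.14, -0.081 and -0.078, and Eif1b 0.058, 0.14, -0.038 and -0.015. Eif1ax lay past 2-fold once, at 4 h, with 0.040, -0.081, -0.32 and -0.060. Eif1ad, named for its eIF1A-like domain, gave -0.18, -0.28, -0.00060 and -0.077. After subtraction of the running median, the Eif1ax value at 4 h was -0.27, under 2-fold, and 4 of 4 genes were again negative at 4 h. At 6 h the sign did not hold for all, with 2 of 4 positive, Eif1a at 0.070 and Eif1b at 0.019.

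The eIF3 complex, which holds the small ribosomal subunit ready for mRNA, had 9 measured subunits and none past 2-fold as deposited and centred. At 4 h 6 of 9 were negative, and at 6 h 7 of 9 were positive, with medians of 0.0044, -0.058, -0.037 and 0.051. Eif3j1 (0.11, -0.075, -0.30 and -0.12) and Eif3k (-0.0014, -0.17, -0.29 and 0.066) were the lowest at 4 h. With the running median removed, Eif3j1 was past 2-fold at 4 h, at -0.31. With arrays scaled to a common spread, Eif3j1 (-0.34) and Eif3k (-0.33) were both past it at 4 h. Eif3e gave -0.20, -0.12, -0.037 and -0.087, with a mean of -0.11 ± 0.069 (SD, n = 4 arrays). Eif3a, the largest subunit, gave 0.17, 0.13, -0.13 and 0.067. Eif3c gave 0.021, 0.12, -0.097 and 0.062, and Eif3i 0.11, -0.058, 0.0081 and 0.050. Eif3m (0.0044, -0.034, 0.0027 and 0.052), Eif3f (-0.077, 0.046, -0.037 and 0.0074) and Eif3d (-0.064, -0.078, 0.043 and 0.051) stayed near the array median.

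Among genes of the cap complex, Eif4a1 varied most over time. It encodes the RNA helicase eIF4A that unwinds the mRNA leader, and gave -0.26, -0.076, 0.38 and 0.24. Its values were negative at 1 and 2 h and positive at 4 and 6 h, where the 4 h value was 2.42-fold above the median. The Eif4a1 slope was 0.11 ± 0.038 log10 units per h (SE, n = 4 arrays), with an unadjusted limma p of 0.0245 and an adjusted p of 0.249. With the running median removed it kept this order, at -0.18, -0.15, 0.33 and 0.17. Eif4a2, its close paralogue, gave -0.041, -0.16, -0.026 and 0.063, and never reached 2-fold. The difference between the helicase genes was not tested.

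The cap-binding protein gene Eif4e gave 0.022, -0.095, -0.098 and -0.019. Its relatives differed from each other. Eif4e3 was 2.47-fold below the median at 1 h, with -0.39, 0.0031, -0.083 and -0.24, and -0.29 at 1 h once the running median was removed. Eif4e2, whose product binds the cap without recruiting the eIF4G scaffold, averaged -0.053, 0.025, -0.096 and 0.098. Eif4g2, a scaffold that lacks the eIF4E site, had no ratio at 1 h and then 0.066, -0.065 and 0.055.

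The eIF4E inhibitor gene Eif4ebp2, the main 4E-BP of brain, gave the most extreme value of any member once spots were averaged per gene. Its log ratios were 0.21, -0.26, -0.055 and -1.36, the last 22.6-fold below the median. The gene had 1 spot, so the 6 h value has no second measurement on that array. The Eif4ebp2 slope of -0.27 ± 0.067 log10 units per h (SE, n = 4 arrays) had an unadjusted limma p of 0.00585 and an adjusted p of 0.158. Its mean over times ranged from -0.56 to -0.035 when 1 array was left out, the latter without 6 h. Eif4ebp1 gave -0.027, 0.26, -0.18 and -0.075, opposite in sign to Eif4ebp2 at 1 and 2 h. With the running median removed, the Eif4ebp1 value at 2 h was 0.302, just past 2-fold. Eif4enif1, which carries eIF4E into the nucleus, averaged 0.021, -0.20, -0.098 and 0.033, from 2 spots that read 0.20 and -0.59 at 2 h.

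**Figure D3:**
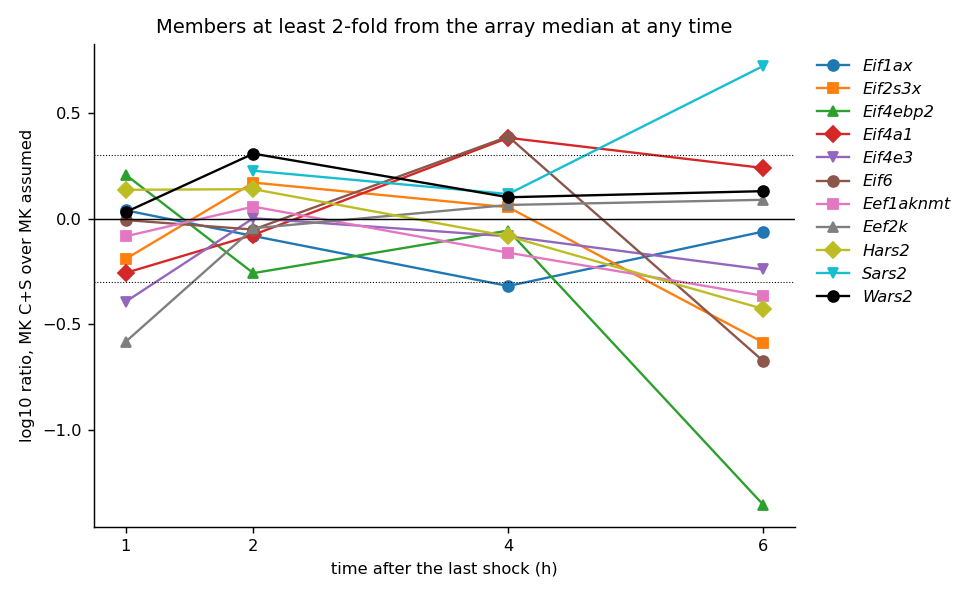
Log10 ratio against time after the last shock for the 11 members at least 2-fold (dotted lines) from the array median at any time, 1 array per time and no error bars. Eif6 is past the lines at 2 times, and Eif4ebp2 reaches the lowest value, -1.36 at 6 h.

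Promoter sequences of 40 of the 58 members were in the RefSeq table (build GRCm38.p6), from 250 bases before to 50 after each start. They are shown because the E-box CACGTG, which reads the same on both strands and is bound by Myc-type and circadian factors, was held by 11 of the 40 genes (27.5%), against 8.09% of 27025 genes in the table. Counted by window, it was in 13 of 54 member windows (24.1%) and 7.15% of 32851 windows, and the median GC content was 61.0% in member windows and 52.7% in all. Whether the GC content accounts for the difference was not tested. A match is a description and does not show binding. The whole windows of the cap-binding gene and of the helicase gene follow, 5′ to 3′, with the E-box in capitals.
Eif4e, chr3:138527018-138527317, plus strand: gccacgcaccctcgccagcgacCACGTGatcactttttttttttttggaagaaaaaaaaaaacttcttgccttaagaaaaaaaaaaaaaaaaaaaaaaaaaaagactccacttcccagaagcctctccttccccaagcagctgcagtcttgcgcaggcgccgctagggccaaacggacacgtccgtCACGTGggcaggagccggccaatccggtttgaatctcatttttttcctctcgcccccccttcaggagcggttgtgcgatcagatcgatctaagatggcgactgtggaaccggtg
Eif4a1, chr11:69672374-69672673, minus strand: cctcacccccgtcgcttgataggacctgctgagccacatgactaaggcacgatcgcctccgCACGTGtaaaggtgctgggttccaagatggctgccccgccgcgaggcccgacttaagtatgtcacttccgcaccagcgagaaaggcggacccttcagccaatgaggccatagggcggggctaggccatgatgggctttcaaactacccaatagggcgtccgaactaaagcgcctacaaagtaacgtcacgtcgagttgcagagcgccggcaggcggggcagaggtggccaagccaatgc

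Eif4e held the E-box at 2 places, positions -228 and -64 relative to the start, in 1 of its 2 windows, and Eif4a1 held it once, at position -189. The other 9 genes are shown as the E-box with up to 12 bases on each side.
Eif1b, chr9:120492570-120492599, plus strand: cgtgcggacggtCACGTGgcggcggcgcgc
Eif3a, chr19:60790654-60790683, minus strand: ccgcgagggaatCACGTGgttccttccttt
Eif3f, chr7:108934335-108934364, plus strand: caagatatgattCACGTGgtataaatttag
Eif3k, chr7:28981915-28981944, minus strand: ctggaaggaaatCACGTGgtagacaaaaaa
Eif5a, chr11:69920791-69920820, minus strand: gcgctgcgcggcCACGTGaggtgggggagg
Eif5a, chr11:69921443-69921472, minus strand: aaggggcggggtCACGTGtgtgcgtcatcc
Eef2k, chr7:120842788-120842817, plus strand: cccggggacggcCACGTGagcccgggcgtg
Eef1aknmt, chr1:162548475-162548504, minus strand: gtgtggctgctgCACGTGgggcgcggaccg
Iars, chr13:49682049-49682078, plus strand: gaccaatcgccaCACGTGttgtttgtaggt
Ears2, chr7:122067048-122067077, minus strand: cgcgaaggagccCACGTGtgtgtttctagt

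The 11 genes with an E-box did not share a direction on the arrays. Positive values were found for 4 of 11 at 1 h, 5 of 11 at 2 h, 4 of 11 at 4 h and 6 of 11 at 6 h, with medians of -0.077, -0.045, -0.038 and 0.0074. The 29 genes with a window and no E-box had 16 of 26, 12 of 28, 8 of 28 and 14 of 27 positive values, with medians of 0.020, -0.054, -0.058 and 0.033. At 4 h the E-box genes covered both ends, from -0.29 for Eif3k to 0.38 for Eif4a1.

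Other elements were rarer. The cyclic AMP response element TGACGTCA was in 0 of the 40 genes (2.03% of all genes). The C/EBP-ATF element TGATGNAA, through which ATF4 is known to act on synthetase genes, was searched on both strands and found in 3 of the 40 (against 4.51% of all genes). No match overlapped an E-box. Their values do not run together: at 1 h Eef2k was at -0.58, Eif2s3x at -0.19 and Iars at -0.13, and at 6 h they were at 0.090, -0.59 and 0.077. The matches are in capitals here, all read from the opposite strand.
Eef2k, chr7:120851093-120851124, plus strand: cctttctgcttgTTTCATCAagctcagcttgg
Eif2s3x, chrX:94212728-94212759, minus strand: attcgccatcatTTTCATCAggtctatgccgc
Iars, chr13:49682125-49682156, plus strand: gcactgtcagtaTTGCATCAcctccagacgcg

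The last genes with Eif symbols were Eif5a and Eif6. Eif5a, which helps the ribosome through difficult peptide bonds, gave -0.14, -0.10, 0.064 and -0.022. Eif6, which keeps the large subunit from joining too early, averaged -0.0059, -0.051, 0.39 and -0.67, past 2-fold at 4 and 6 h in opposite directions. Those averages at 4 and 6 h came from 2 spots that disagreed. One of them read 0.012, 0.74 and -1.49 at 1, 4 and 6 h with no ratio at 2 h, and the other read -0.023, -0.051, 0.036 and 0.14. Without the first of these spots, Eif6 was under 2-fold at all 4 times, so that 1 member (Eif4a1) was at least 2-fold above the median at 4 h, in place of 2, and 0 members were past 2-fold at more than 1 time.

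**Figure D4:**
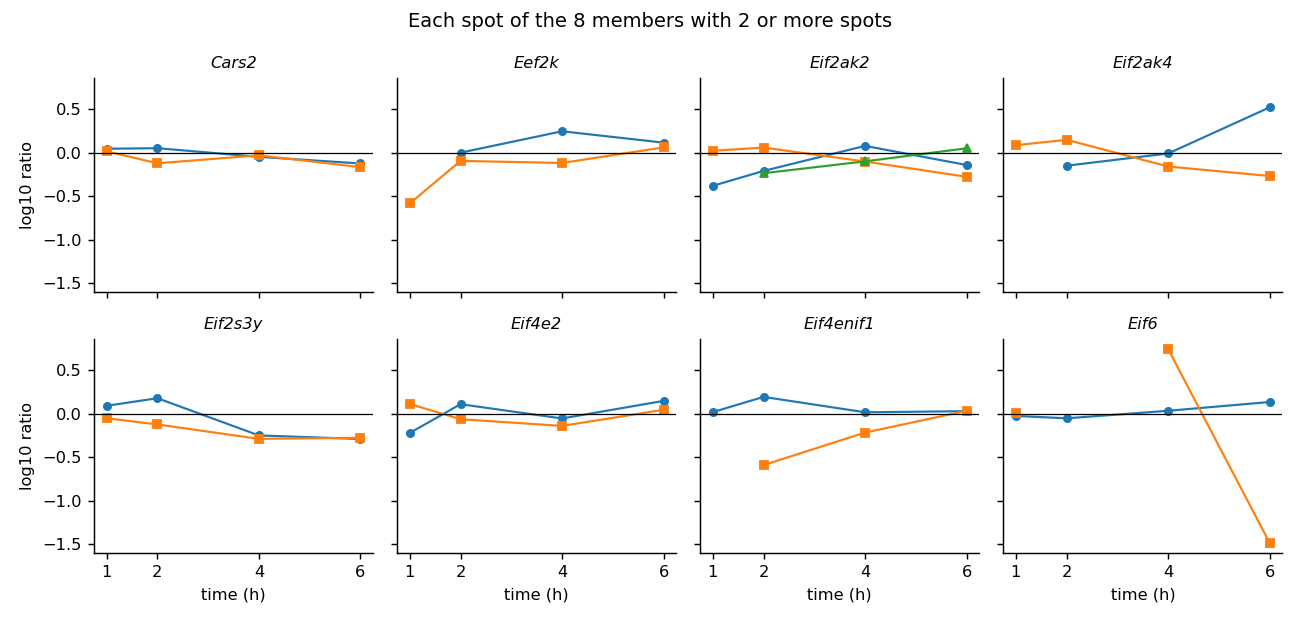
Log10 ratio against time for every spot of the 8 members with 2 or more spots, 1 panel per gene and 1 symbol per spot. The 2 Eif2s3y spots meet at 4 and 6 h, at -0.25 to -0.29, while the 2 Eif6 spots are 1.62 log10 units apart at 6 h.

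Of the 58 members, 50 had a single spot. For the 8 with more, a time at which 2 or more spots were measured occurred 28 times, and all spots of the gene had the same sign in 11 of these (39.3%). The same held in 4489 of 8979 such cases over all genes, about as often as not. Spots of unrelated sign would match about that often in pairs, and the members' share was lower. The median gap between a member's highest and lowest spot was 0.17 log10 units, larger than each of the 4 member medians. Reproducibility of the values of the 50 single-spot genes was therefore not shown. Between arrays, Spearman correlations of members ran from -0.37 (1 and 4 h) to 0.28 (4 and 6 h). The same pairs gave -0.021 and 0.34 over all genes. Arrays of different times are not replicates, so these correlations cannot measure reproducibility.

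The elongation factors themselves had no value past 2-fold. Eef1a2, the eEF1A form of mature neurons and muscle, gave -0.16, 0.29, 0.040 and 0.041. Eef1a1, the form of most other cells, had no ratio at 1 h and then 0.092, -0.14 and 0.049. The exchange factor subunits Eef1d (-0.031, -0.12, 0.15 and -0.045) and Eef1g (0.013, -0.037, 0.049 and 0.0079) stayed near the median, and Eef1b2 was measured only at 1 h (-0.054). Eef1e1, a component of the multisynthetase complex, gave 0.018, -0.086, -0.043 and 0.047.

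The 2 values past 2-fold in the elongation group belonged to enzymes that act on the factors. Eef2k, the calcium-activated kinase that inhibits eEF2, gave -0.58, -0.045, 0.066 and 0.090. The 1 h value was 3.82-fold below the median and came from 1 of its 2 spots, as the other had no ratio on that array. The Eef2k slope was 0.11 ± 0.042 log10 units per h (SE, n = 4 arrays), with an unadjusted limma p of 0.0333 and an adjusted p of 0.282. It sets 1 spot at 1 h against averages of 2 spots later. Those 2 spots had opposite signs at 2 h (-0.092 and 0.0024) and at 4 h (-0.12 and 0.25), and were both positive at 6 h. The 3 eEF1A methyltransferase genes were negative at 4 and 6 h, but with the running median removed Eef1akmt1 (0.016) and Eef1akmt2 (0.0051) were positive at 6 h. As deposited and centred, Eef1akmt1 gave 0.00063, -0.16, -0.13 and -0.096, and Eef1akmt2 0.018, -0.17, -0.10 and -0.053. Eef1aknmt gave -0.083, 0.058, -0.16 and -0.36, past 2-fold at 6 h.

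As deposited and centred, the cytosolic synthetases, which charge tRNAs for the main ribosomes, had no value past 2-fold. Their sign differed by time, with 7 of 9 positive at 1 h, 4 of 9 at 2 h, 3 of 9 at 4 h and 2 of 9 at 6 h, and medians of 0.067, -0.018, -0.088 and -0.074. At 4 h the lowest were Nars (asparagine), Qars (glutamine) and Lars (leucine). Nars gave 0.088, -0.031, -0.28 and -0.074. Lars gave 0.067, -0.11, -0.26 and -0.13. Qars gave 0.063, 0.20, -0.27 and -0.27, a slope of -0.091 ± 0.034 log10 units per h (SE, n = 4 arrays) with an unadjusted limma p of 0.0349 and an adjusted p of 0.289. With the running median removed, the 4 h class median was -0.079 with 3 of 9 positive, while the 6 h median was -0.021 with 3 of 9 positive. Qars was then past 2-fold at 6 h, at -0.34. With arrays scaled to a common spread, Nars (-0.32) and Qars (-0.31) were past 2-fold at 4 h.

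The remaining cytosolic enzymes did not all follow that order. Cars (cysteine) gave 0.15, 0.063, -0.19 and 0.18, high on each side of its 4 h value. Rars (arginine) gave 0.025, -0.018, -0.088 and -0.12, and Vars (valine) -0.018, 0.25, -0.084 and -0.029. Hars (histidine), Iars (isoleucine) and Wars (tryptophan) were the 3 that were positive at 4 h, at 0.14, 0.027 and 0.070. Wars was negative at 2 and 6 h (-0.099 and -0.087), Hars at 2 and 6 h (-0.097 and -0.014) and Iars only at 1 h (-0.13).

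Mitochondrial synthetases, which serve the organelle's own ribosomes, had 3 of 6 genes past 2-fold at any time, Sars2, Hars2 and Wars2, against 32.5% of all genes. Each of the 3 had 1 spot. Wars2 passed only at 2 h, at 2.04-fold, and was under 2-fold there (0.28) with the running median removed. Sars2 and Hars2 passed only at 6 h, where 10.2% of all genes were past 2-fold above the median and 11.7% below it. All 5 mitochondrial synthetase genes with a value at 1 h were positive (50.4% of all genes), with a median of 0.033, and at 6 h 3 of 6 were (48.6%). Ears2 lay almost at the array median at 1 h, at 0.0023. With the running median removed it was at -0.0013, and 4 of the 5 were positive. Sars2 (serine) had no ratio at 1 h and then 0.23, 0.12 and 0.72, the last 5.30-fold above the median and the highest gene value of any member. Hars2 (histidine) gave 0.14, 0.14, -0.082 and -0.43, with the lowest unadjusted limma p of the members' slopes, 0.00501 (slope -0.12 ± 0.028 log10 units per h, SE, n = 4 arrays, adjusted p 0.154). Wars2 (tryptophan) gave 0.032, 0.31, 0.10 and 0.13, with a mean of 0.14 ± 0.12 (SD, n = 4 arrays) and an adjusted limma p of 0.449.

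The other mitochondrial enzymes were less far from the median. Fars2 (phenylalanine) gave 0.16, -0.28, -0.14 and 0.041, Ears2 (glutamate) 0.0023, -0.19, -0.11 and -0.14, and Cars2 (cysteine) 0.033, -0.033, -0.037 and -0.14. The 2 Cars2 spots lay within 0.042 log10 units of each other at 1, 4 and 6 h and 0.17 apart at 2 h. Enzymes for the same amino acid in the 2 compartments were positive together at 1 h for histidine, tryptophan and cysteine. At that time 12 of 14 measured synthetases were positive. At 2 h each pair had opposite signs, with Hars -0.097 and Hars2 0.14, Wars -0.099 and Wars2 0.31, and Cars 0.063 and Cars2 -0.033. At 4 h Hars (0.14) and Hars2 (-0.082) had opposite signs. Wars (0.070) and Wars2 (0.10) were both positive there, and Cars (-0.19) and Cars2 (-0.037) both negative. At 6 h Hars2 (-0.43) and Hars (-0.014) were both negative, while Wars2 (0.13) and Wars (-0.087), and Cars2 (-0.14) and Cars (0.18), had opposite signs. No test of these pairs was made.

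Among genes of the pathway outside the naming rule, 14 genes of release, recycling and scanning were on the arrays, and 4 of the 14 had values past 2-fold at any time, all negative, against 32.5% of all genes past 2-fold in either direction. Denr and Mcts1, whose products form a complex that removes tRNA from spent small subunits and aids reinitiation, were both low at 2 h. Mcts1 gave -0.077, -0.78, -0.91 and -0.94, and Denr gave -0.20, -1.14, -0.14 and -0.11. Both were negative on every array, at 4 and 6 h only Mcts1 was past 2-fold, and each rested on 1 spot. Gspt1, a release factor GTPase, gave 0.17, -0.14, -0.48 and -0.54, and Fmr1, an RNA-binding repressor of synaptic translation, -0.63, -0.30, -0.57 and -0.072. The list medians of -0.022, -0.0059, -0.096 and -0.072 were below 0 at each time.

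Of 12 genes of mTOR and MNK signalling to initiation, values past 2-fold occurred at 6 h only, and Rps6 had no ratio on any array. At 6 h 1 of 11 measured genes was at least 2-fold above the median (10.2% of all genes) and 1 of 11 below it (11.7%), each on 1 spot. Rheb, the GTPase that activates mTORC1, had no ratio at 1 h and then -0.065, 0.012 and 0.62, and Deptor, an mTOR inhibitor, gave -0.035, -0.056, -0.13 and -0.36. Of 5 mitochondrial translation genes, 5, 3, 2 and 3 were positive at 1, 2, 4 and 6 h, against 50.4%, 49.7%, 49.8% and 48.6% of all genes. Their medians were 0.18, 0.027, -0.056 and 0.050. Gatc, a subunit of the glutamyl-tRNA amidotransferase, gave 0.32, -0.067, -0.070 and 0.16. The genes Eprs, Farsb and Aimp1 of the synthetases and their complex stayed under 2-fold, between -0.13 and 0.26.

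Of 18 targets and regulators of the integrated stress response, the program set off by eIF2 phosphorylation, 6 of 16 measured were positive at 1 h, 12 of 18 at 2 h and 9 of 18 at each of 4 and 6 h. At 6 h 2 of 18 were at least 2-fold above the median (10.2% of all genes) and 2 of 18 below it (11.7%). These were Chac1 (0.97) and Slc7a11 (0.35) above the median, and Sesn2 (-0.46) and Ddit3 (-0.38) below it. Impact, an inhibitor of GCN2, was at 0.38 at 4 h. Atf4, the central transcription factor of the response, gave -0.14, 0.018, -0.055 and 0.011, and its target Asns, the asparagine synthetase gene, -0.21, 0.12, -0.048 and 0.13. Known targets of the pathway lay on both sides of the median at 6 h.

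Over the 4 arrays, 12586 to 15078 spots had a ratio. Markers of other cells differed by time. The choroid plexus list had 6 of 7 measured genes positive at 1 h with a median of 0.49, and medians between -0.025 and -0.0011 later. Its defining gene Ttr had no ratio at 1 h and then -0.66, -1.27 and -0.12, the 2 and 4 h values being the lowest of the list. CA3 markers had medians between -0.39 and -0.11, and endothelial and mural markers between -0.16 and -0.041. Medians by array ran from -0.091 to 0.087 for dentate granule, -0.039 to 0.14 for astrocyte, 0.00062 to 0.045 for oligodendrocyte and -0.069 to 0.13 for microglial markers. Of 7 listed CA1 markers 3 were on the arrays, with Wfs1 at 0.32, 0.10, 0.24 and 0.16, Dcn at -0.14, 0.092, -0.15 and -0.18, and Pou3f1 measured only at 1 h, at 0.11. The part of these cells in the member values was not tested.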

How the data were processed

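RNA of the CA1 field was measured on 4 arrays with 2 dyes, 1 for each labelled time. The authors deposited log ratios per spot, read here as log10 by assumption. Their range, from -3.10 to 1.58, does not settle the base. Base, direction, scanner, background correction and normalization are not stated in those sources that were used here, and each deposited column had a median of 0. An exact 0 (7.39% to 22.7% of spots) was read as not measured, and the median of the other spots (-0.0054 to 0.0055) was subtracted. Of the spots, 13738 had a single gene in the platform annotation, 52 had several and 2491 are unnamed here. Measured spots of a gene were averaged. RefSeq gene identifiers matched all 58 members.

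Genes at least 2-fold from the median were counted with no p-value. limma 3.58.1 under R 4.3.3 (lmFit, eBayes, two-sided) tested the 4-array mean and the slope on hours, with Benjamini-Hochberg adjustment over 8552 genes at 0.05, after the procedure was tested on simulated data. Samples at different times are not replicates, so these p-values measure the spread between 4 arrays. No intensities were used, so the number of arrays and the unknown signal limit the precision.

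Named genes were members past 2-fold at any time, the 2 members of each class with the largest absolute mean, 14 of 18 preset genes that had a spot, and genes of 5 other lists past 2-fold. Other members were named to account for them. Members and lists were chosen with earlier results of these data known. Alternatives were other centring, spot rules, treatment of exact zeros, scaling, array weights, time scales, log bases and fold sizes, a running median over 51 spots, and each array left out.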

Additional observations from a re-analysis of the deposited data

Results flagged for a closer look

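Eif6 lay past 2-fold in opposite directions at 2 times, above the median at 4 h and below it at 6 h, a difference of -1.06 log10 units (6 h minus 4 h). The difference was not tested. It came from 1 of the 2 Eif6 spots, at 0.74 and -1.49, while the other spot read 0.036 and 0.14.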

How the results depend on the processing

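Under none of the 11 alternatives for the mean was a member called, and under 12 of 13 for the slope none was. Leaving out 1 array gave 0 to 2 members called for the slope, the 2 being Eif4ebp2 and Eif6 without the 4 h array, where 3 arrays remain. Counts of members past 2-fold depend on the threshold and the log base. At 1.5-fold they were 8, 13, 12 and 11 at 1, 2, 4 and 6 h, against 2, 1, 3 and 6. At 3-fold they were 1, 0 and 0 at 1, 2 and 4 h. Base 2 gave 0, 0, 0 and 1, and natural logs 0, 0, 0 and 2. Scaling arrays to a common spread gave 4 at 2 h and 8 at 4 h. At 1 h the count was 1 with exact zeros kept (Eif4e3) or with the running median over 51 spots removed (Eef2k), and at 2 h it was 2 with each spot on its own. Removing the running median moved the median of all members to -0.030 at 4 h and to 0.015 at 6 h. It also took the 1 h median from 0.015 to 0, where positive members were no longer the majority. The mean in place of the median was -0.066 at 6 h. The cause of these shifts was not tested. Positive counts of all members moved within their interval under all 24 alternatives, but that interval was wide. It held the change from 24 to 31 of 56 positive at 6 h with the running median removed, which reverses the majority. It also held the loss of the positive majority at 1 h. The check therefore cannot show that the majority sign at a time was stable. Of the class medians 26 moved by more than their spread between arrays and 282 did not, and of the named means 2 moved, both for the spots of Eif4enif1, and 227 did not. Leaving out the disagreeing Eif6 spot was chosen after seeing the data and gave 2 members past 2-fold at 4 h and 5 at 6 h, but those above the median at 4 h numbered 1 in place of 2. No paired analysis was possible because each time has 1 array and the labels give no replicate numbers. Signal over background is unknown, since no intensities were used.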
